A study of Homo sapiens with 2 samples.

Results

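RAB genes encode small GTPases that mark the membranes of the cell and steer vesicle traffic between them. The genes examined were the protein-coding genes of RefSeq GRCh38 whose symbol is RAB followed by a digit, leaving out symbols that contain IP, which mark interacting proteins. This rule used gene names only and gave 68 of 20037 protein-coding genes. Of the 68, 64 are RAB GTPases, whereas RAB3GAP1, RAB3GAP2, RAB3IL1 and RAB5IF carry a RAB symbol but are not GTPases, so the name of the group holds for all but 4 of its members.

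The genes were looked up in a list of binding peaks of regulatory factor X6 (RFX6), a transcription factor with a winged-helix DNA-binding domain. ChIP-seq, the sequencing of DNA that precipitates with a protein, was done in MHCC-97H, a human hepatocellular carcinoma (HCC) cell line, overexpressing RFX6 with an HA tag from a plasmid, and the HA tag was the target of the antibody. The series holds 1 ChIP library and 1 input library of MHCC-97H cells, and the peak list was deposited for the ChIP library. Whether the input served as its control is not given in the sources used here. There was no replicate and no ChIP of cells without HA-RFX6 to set beside it, the read depth was unknown, and no test between samples was possible. The list held 5019 distinct intervals on chromosomes 1 to 22 and X, of which 3054 (60.8%) were centred within 1 kb of a protein-coding gene end.

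A Rab protein cycles between a form bound to GTP, which sits on a membrane and recruits effectors, and a form bound to GDP, which is drawn into the cytosol. Exchange factors load GTP, GTPase activating proteins (GAPs) trigger its hydrolysis, and a prenyl anchor holds the protein in the membrane. In hepatocytes Rab proteins serve the secretion of plasma proteins and lipoproteins, the delivery of proteins to the bile canaliculus, and endocytosis and recycling of receptors.

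Of the 68 RAB genes, 20 had an interval with its midpoint within 1 kb of a gene end (29.4%, exact 95% binomial interval 19.0% to 41.7%). Among all protein-coding genes the share was 15.5%. A further 1 gene, RAB3IL1, had an interval in the gene body only (1.47%, compared with 4.06% of all protein-coding genes), and 47 had no interval. For intervals scoring at least 30, the median of the whole list, 11 of the 68 remained (16.2%), compared with 9.5% of all protein-coding genes. No confidence interval was computed for this filtered share, and its difference from 9.5% was not tested. The 20 genes were all GTPases, which made 31.2% of the 64 (20.2% to 44.1%). The confidence intervals cover the counting of genes only, and the genes are not replicates.

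The intervals lay at the start of these genes. Annotated starts were found in a RefSeq promoter table of GRCh38.p14 for 55 of the 68 members, and in 18 of these an interval was centred within 1 kb of a start (32.7%, compared with 16.3% of 15843 protein-coding genes with a start in the table). The members not matched were RAB1A, RAB2A, RAB12, RAB15, RAB20, RAB26, RAB33A, RAB33B, RAB36, RAB37, RAB38, RAB39B and RAB44. Among members longer than 5 kb with an annotated start, 17 of 48 carried an interval at the start, within 1 kb (35.4%, 22.2% to 50.5%), and 1 of 48 at the far end (2.08%, 0.0527% to 11.1%). For the 13504 protein-coding genes over 5 kb with an annotated start these shares were 17.4% and 0.94%. In both, intervals were found at the start rather than at the far end.

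The sequences below are the 250 bases before the start of the 4 members with the highest-scoring intervals, from the RefSeq table of GRCh38.p14 and written in the direction of transcription. Capitals mark the bases that lay inside an interval. RAB5C is shown as the close relative of RAB5A that had no interval.
RAB5A (chr3:19946847-19947096, plus strand): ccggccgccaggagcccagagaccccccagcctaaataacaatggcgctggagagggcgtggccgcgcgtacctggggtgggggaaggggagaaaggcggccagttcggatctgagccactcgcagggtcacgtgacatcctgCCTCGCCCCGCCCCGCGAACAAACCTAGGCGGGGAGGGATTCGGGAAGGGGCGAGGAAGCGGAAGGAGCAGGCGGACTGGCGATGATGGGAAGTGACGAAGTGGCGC
RAB22A (chr20:58309465-58309714, plus strand): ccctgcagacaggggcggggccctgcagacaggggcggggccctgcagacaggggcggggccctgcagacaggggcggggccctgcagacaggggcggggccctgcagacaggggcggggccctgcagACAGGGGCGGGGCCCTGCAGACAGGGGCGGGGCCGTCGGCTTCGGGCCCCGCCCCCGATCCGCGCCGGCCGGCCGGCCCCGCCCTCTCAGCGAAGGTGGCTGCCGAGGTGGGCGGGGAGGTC
RAB8A (chr19:16111639-16111888, plus strand): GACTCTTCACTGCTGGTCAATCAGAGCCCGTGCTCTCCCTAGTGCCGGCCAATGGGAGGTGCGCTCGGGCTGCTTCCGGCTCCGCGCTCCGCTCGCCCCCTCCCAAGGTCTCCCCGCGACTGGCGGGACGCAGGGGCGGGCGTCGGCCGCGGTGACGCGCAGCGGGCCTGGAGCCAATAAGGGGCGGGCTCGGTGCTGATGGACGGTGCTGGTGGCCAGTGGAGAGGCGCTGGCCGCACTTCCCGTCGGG
RAB21 (chr12:71754613-71754862, plus strand): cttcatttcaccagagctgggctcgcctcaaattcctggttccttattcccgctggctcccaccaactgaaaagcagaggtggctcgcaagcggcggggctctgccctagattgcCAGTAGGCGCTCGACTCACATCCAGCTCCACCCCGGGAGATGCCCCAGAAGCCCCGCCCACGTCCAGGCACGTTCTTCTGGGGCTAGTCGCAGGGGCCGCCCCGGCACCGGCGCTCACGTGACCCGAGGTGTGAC
RAB5C (chr17:42154990-42155239, minus strand): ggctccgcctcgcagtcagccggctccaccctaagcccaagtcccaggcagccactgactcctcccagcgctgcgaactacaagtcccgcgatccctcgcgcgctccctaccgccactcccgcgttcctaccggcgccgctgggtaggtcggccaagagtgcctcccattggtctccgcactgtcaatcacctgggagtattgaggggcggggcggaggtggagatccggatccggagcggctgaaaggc
At RAB5A 107 of the 250 bases lay inside an interval, at RAB22A 122, at RAB21 135 and at RAB8A all 250. The window of RAB22A opened with a repeat of a unit of 20 bases, ccctgcagacaggggcgggg, which filled its first 162 bases. How the authors treated reads that map to several places is not given in the sources used here.

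The score deposited with each interval was used for ranking and filtering only, since its meaning is not stated. Across the 25 intervals at RAB gene ends it had a median of 26, with a range from 14 to 75. The 3054 intervals at ends of protein-coding genes had a median of 32 and a range from 13 to 126. A score of at least 30 was reached by 11 of the 25 (44.0%), compared with 57.1% of the 3054. The median score was thus lower at RAB gene ends than at gene ends in general. The median width of the intervals at RAB gene ends was 244 bp, compared with 282 bp.

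**Figure D1:**
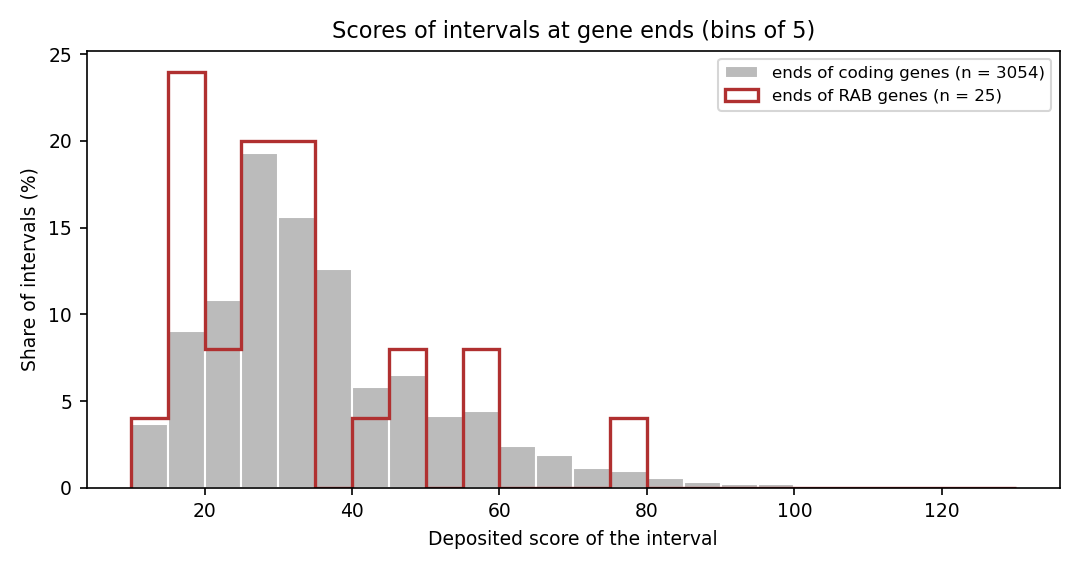
Share of intervals (%, vertical axis) by deposited score (horizontal axis, bins of 5) at ends of all protein-coding genes (grey bars, n = 3054) and at ends of RAB genes (red outline, n = 25). The RAB intervals ran from 14 to 75 with a median of 26, compared with a median of 32 for all.

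The highest score was found at a gene of early endosomes. The RAB GTPases were grouped from general knowledge by the place where they work, with earlier results of these data known. Several work at more than 1 place, and only the placement of RAB6D was varied. The confidence intervals of the groups make no allowance for the number of groups. Of 6 RAB genes of early endosomes, 5 had an interval at an end (83.3%, 35.9% to 99.6%), compared with 15.5% of all protein-coding genes. For scores of at least 30 this was 3 of 6 (11.8% to 88.2%), compared with 9.5%, and RAB5A, RAB21 and RAB22A remained. RAB5A, the GTPase that drives fusion of early endosomes, had the highest score of the family. Its interval at chr3:19946990-19947215 scored 75, above 98.2% of all intervals, and its midpoint was 5.5 bp from the start. A lower-scoring interval followed from 19947332 to 19947531, scoring 17. Both intervals also lay within 1 kb of an end of EFHB, which cannot be told apart from RAB5A as the bound gene. RAB5B, a close relative, had an interval at chr12:55974133-55974376 scoring 25, and its midpoint was 176.5 bp downstream of the nearest start. A second interval, from 55997318 to 55997561, scoring 15, lay beyond the far end of RAB5B and within 1 kb of an end of SUOX. The third relative, RAB5C, had none.

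RAB22A, which acts between early and recycling endosomes, had an interval of 382 bp at chr20:58309593-58309974, scoring 59 (percentile 92.8). It contained the annotated start. RAB21, which takes part in the uptake of integrins, had an interval of 336 bp at chr12:71754728-71755063, scoring 49 (percentile 85.6), and the midpoint was 32.5 bp downstream of the start. RAB31, also known as RAB22B, had an interval at chr18:9708079-9708347, scoring 29, that contained the start. A second RAB31 interval scoring 32 lay 26196 bp inside the gene, from 9734346 to 9734648. Thus the early endosome group showed scores from 15 to 75 within the same role.

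Of 11 RAB genes of the endoplasmic reticulum (ER) and the Golgi, 5 had an interval at an end (45.5%, 16.7% to 76.6%). With RAB6D, which was placed in no group, beside its relative RAB6C this became 5 of 12 (41.7%, 15.2% to 72.3%), an interval that includes 15.5%. For scores of at least 30, 3 of the 11 remained (27.3%, 6.02% to 61.0%), compared with 9.5% of all protein-coding genes. RAB1A and RAB1B both steer transport from the ER to the Golgi, and both had a narrow interval. The RAB1A interval at chr2:65129685-65129886 scored 17 and lay 320.5 bp inside the gene. The RAB1B interval at chr11:66268331-66268530 scored 30 and lay 208.5 bp before the start, within 1 kb of an end of KLC2 as well. RAB6A, a regulator of traffic at the Golgi, had an interval across its start at chr11:73760982-73761234, scoring 43 (percentile 78.7). In RAB6B the interval at chr3:133894894-133895129, scoring 25, was the farthest from a gene end among those counted, at 870.5 bp. RAB43 had an interval at chr3:129121949-129122162, scoring 30, that contained a start. The scores in this group thus stayed at or below 43.

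Among 12 RAB genes of secretion and exocytosis, 4 had an interval at an end (33.3%, 9.92% to 65.1%). RAB8A, which directs vesicles to the plasma membrane and the cilium, had an interval of 315 bp across its start at chr19:16111625-16111939, scoring 59. A neighbouring interval from 16111362 to 16111567 scored 26. Its relative RAB8B had an interval at chr15:63189239-63189467, scoring 25, and the midpoint was 253 bp before the start. RAB10, known for bringing the glucose transporter GLUT4 to the cell surface, had the widest interval of the family. It measured 762 bp (chr2:26033603-26034364) and appeared on 3 lines with scores from 37 to 45. RAB26, a GTPase of secretory granules, had intervals at chr16:2147916-2148215 and from 2148291 to 2148556, scoring 16 and 24. The RAB3 genes of regulated exocytosis (RAB3A, RAB3B, RAB3C and RAB3D), RAB27A and RAB27B, as well as RAB13 and RAB37, had none at an end.

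In the recycling and late endosome groups the shares were lower than in the groups above, although these groups are small and differences between them were not tested. Of 9 genes of recycling endosomes, RAB4B and RAB11B had an interval (22.2%, 2.81% to 60.0%). At RAB4B, of the fast recycling route, the interval at chr19:40778051-40778390 contained the start and scored 33, and an end of MIA was also within 1 kb. At RAB11B, of the slow route, the interval at chr19:8390173-8390377 contained the start but scored only 14, the lowest of the family. RAB4A, RAB11A, RAB14, RAB15, RAB17, RAB25 and RAB35 had none. None of the 5 genes of late endosomes, lysosomes and autophagy (RAB7A, RAB7B, RAB9A, RAB9B and RAB24) had an interval. This count allows a share of up to 60.0%, and its exact interval ends at 52.2%. The 3 genes of lysosome-related organelles (RAB29, RAB32 and RAB38) had none either, with an exact interval of up to 70.8%. Of the late endosome genes, RAB9A and RAB9B are on chromosome X, where 2.95% of all protein-coding genes had an interval at an end.

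Of 3 genes of the cilium, RAB28 and RAB34 had intervals at an end and RAB23, a brake on Hedgehog signalling, had none. The share was 66.7%, and its confidence interval, 9.43% to 99.2%, included the 15.5% of all protein-coding genes. The RAB28 interval at chr4:13484545-13484990 was centred 427.5 bp before the start, with 34 and 29 as the scores of its lines. At RAB34, which is needed early in the formation of cilia, intervals were found at chr17:28717825-28718127 and from 28718179 to 28718420, scoring 17 and 22, and each contained an annotated start. Among the 15 GTPases placed in none of these groups, RAB40B and RAB40C had an interval at an end (13.3%, 1.66% to 40.5%). They differ from other Rab proteins by a SOCS box, which connects them to a ubiquitin ligase. The RAB40B interval, of 467 bp at chr17:82698496-82698962, contained the start and scored 30. RAB40C had an interval across its start at chr16:589308-589510, scoring 17. An interval with a higher score, 34, from 590982 to 591296, lay 1782 bp inside the gene, and another scoring 17 lay near the far end.

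**Figure D2:**
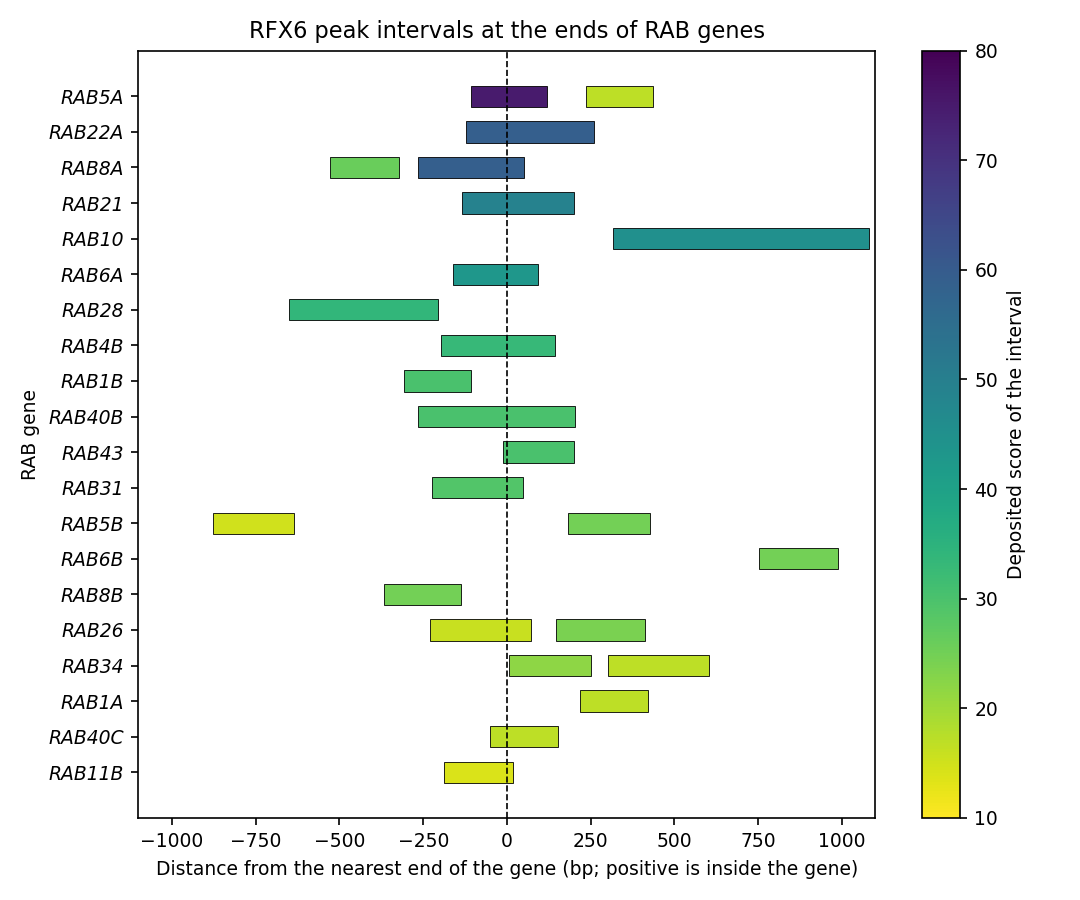
Intervals at the ends of the 20 RAB genes that had one, ordered from top to bottom by highest score. Each bar spans an interval, the horizontal axis gives its distance from the nearest end of the gene (bp, positive inside the gene), and colour gives the deposited score. The RAB5A bar with a score of 75 crosses the gene end, whereas the midpoint of the RAB6B bar lies farthest inside, at 870.5 bp.

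**Figure D3:**
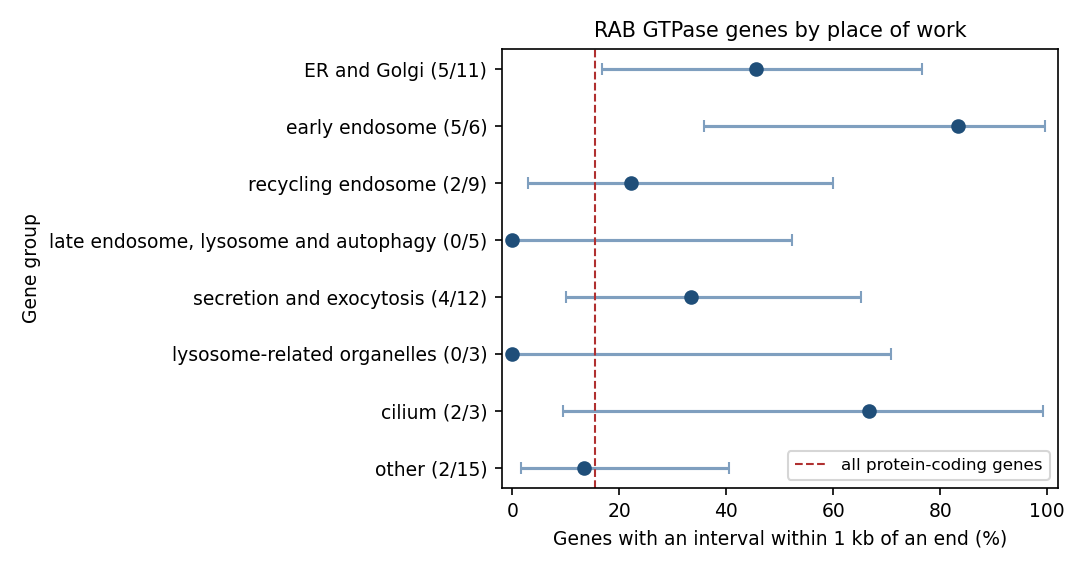
Share of RAB GTPase genes with an interval within 1 kb of an end (%, horizontal axis), by the place where they work. Points are shares, bars are exact 95% binomial intervals, and the dashed line is the share of all protein-coding genes (15.5%). The bars of early endosomes (5 of 6) and of the ER and Golgi (5 of 11) lie above the line, that of the ER and Golgi narrowly (lower limit 16.7%). The other bars reach across it. The groups were made with earlier results known, and the bars make no allowance for their number.

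The other members without an interval in these groups were RAB2A, RAB2B, RAB6C, RAB18, RAB30 and RAB33B in the ER and Golgi group. Those outside the groups were RAB6D, RAB12, RAB19, RAB20, RAB33A, RAB36, RAB39A, RAB39B, RAB40A, RAB40AL, RAB41, RAB42 and RAB44, together with RAB3GAP1, RAB3GAP2 and RAB5IF. RAB3IL1, an exchange factor, had an interval scoring 25 at chr11:61917209-61917706, 2826.5 bp downstream of its annotated start. Exonic and intronic positions were not told apart, since no exon annotation was used here. Just inside the limit of 1 kb stood RAB6B at 870.5 bp, and just outside it stood RAB37, with an interval 1371 bp beyond an end.

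Genes of the same subfamily did not always match. There were 14 RAB subfamilies with more than 1 gene under the same number, and they held 35 genes. In 2 of them, RAB1 and RAB8, every gene had an interval at an end. In 5 of them, some genes had an interval and others did not, namely RAB4B but not RAB4A, RAB11B but not RAB11A, RAB5A and RAB5B but not RAB5C, RAB6A and RAB6B but not RAB6C or RAB6D, and RAB40B and RAB40C but not RAB40A or RAB40AL. The remaining 7 subfamilies had none. Of all 64 RAB GTPases, 31.2% had an interval at an end, and of all protein-coding genes 15.5%. Whether this split differs from that of unrelated genes with such shares was not tested. Without reads or depth, missing binding and enrichment below the calling threshold cannot be told apart. RAB40A and RAB40AL are on chromosome X, where 2.95% of all protein-coding genes had an interval at an end. The promoters of RAB6C and RAB6D had a GC content of 42.0% and 40.7%. Of all protein-coding genes with promoters of up to 53.7% GC, 4.34% had an interval at an end.

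Chromosome X held 7 of the members, namely RAB9A, RAB9B, RAB33A, RAB39B, RAB40A, RAB40AL and RAB41, and 0 of the 7 had an interval, which allows a share of up to 42.9%. On that chromosome the share of all protein-coding genes was 2.95%. On the other chromosomes 20 of 61 members had an interval at an end (32.8%, 21.3% to 46.0%), compared with 16% of all protein-coding genes there. The difference from the background was also present without chromosome X.

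Other genes close to the intervals were counted. In 16 of the 20 genes, no end of another protein-coding gene was within 1 kb of the interval midpoints. The exceptions were RAB1B with KLC2, RAB4B with MIA, RAB5A with EFHB, and RAB5B, whose interval at the far end was near SUOX. Among the 16, 7 had an end of a non-coding gene within 1 kb, namely RAB6A, RAB8B, RAB10, RAB11B, RAB22A, RAB28 and RAB31, which left 9 of the 20 with no other gene end nearby. Matching shares for all protein-coding genes with an interval at an end were not computed, so these counts describe the RAB genes only. When each interval was given only to the protein-coding gene with the nearest end, all 20 genes were still called (29.4% of the members), compared with 13.4% of all protein-coding genes. In 5 of the 20 genes, namely RAB5A, RAB5B, RAB8A, RAB26 and RAB34, 2 intervals were at the ends. That was 7.35% of the 68 members (2.43% to 16.3%), compared with 2.33% of all protein-coding genes. Among genes with an interval at an end it was 5 of 20 (8.66% to 49.1%), compared with 15.1% of 3100 protein-coding genes.

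The composition of the promoters was compared between members with and without an interval. A promoter was taken here as the 250 bases before to 50 bases after the outermost annotated start. In the 18 members with an interval at an end and a promoter in the table, GC content ranged from 54.0% to 82.7% with a median of 69.3%. In the 37 members without, it ranged from 31.7% to 81.0% with a median of 62.0%. The groups overlapped widely. All protein-coding genes showed the same order, with medians of 68.0% in 2519 genes with an interval and 61.3% in 13324 without. The ratio of observed to expected CpG had a median of 0.921 in members with an interval and 0.764 in those without. All protein-coding genes again showed the same order, with medians of 0.869 and 0.725.

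The share of genes with an interval followed GC content in both. Protein-coding genes were divided into 4 bins of nearly equal size by promoter GC, split above 53.7%, 62.7% and 70.0%. From the lowest to the highest bin, 4.34%, 12.4%, 21.5% and 25.7% of these genes had an interval at an end. Of the members, it was 0 of 6 in the lowest bin, a number too small to set a useful limit, then 2 of 17 (11.8%), 8 of 19 (42.1%) and 8 of 13 (61.5%). The lowest promoters included those of RAB6C and RAB6D, at 42.0% and 40.7%, and of RAB40A, at 31.7%. In contrast, RAB32, RAB24 and RAB4A had promoters of 81.0%, 78.0% and 75.7% and no interval. RAB5A and RAB5C, whose sequences are printed above, had promoters of 69.3% and 68.3%. The part of GC content in the calls was not tested.

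**Figure D4:**
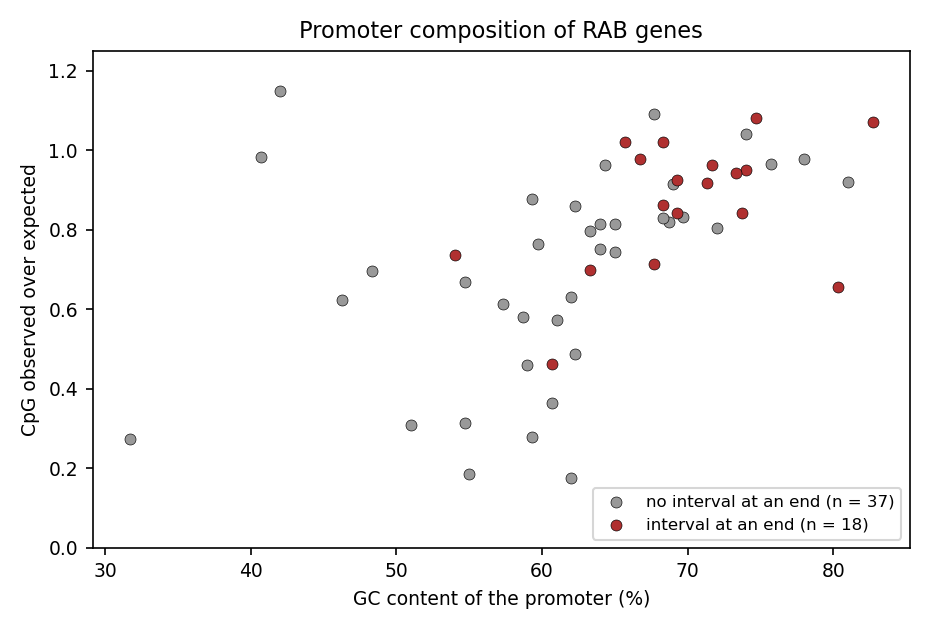
GC content (%, horizontal axis) and ratio of observed to expected CpG (vertical axis) of the promoters of 55 RAB genes, each 1 point. Genes with an interval at an end (red, n = 18) ranged from 54.0% to 82.7% GC, and genes without (grey, n = 37) from 31.7% to 81.0%.

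The letters of known promoter motifs were then searched on both strands of these 300 bases. GTTGCC, an arm of the X-box recognised by RFX proteins, was present in 0 of the 18 promoters of members with an interval, which allows a share of up to 16.7%. It was present in 2 of 37 without (RAB27A and RAB29) and in 12.6% of all 15843 promoters. Among all protein-coding genes, its share was 12.5% in promoters with an interval and 12.6% in those without. The whole X-box, an inverted repeat of this arm with free positions, which may contain it, was found in 0 of the 55 and in 0.454% of all. Its share was 0.516% in all promoters with an interval and 0.443% in those without. GGGCGG, the core of the site of SP factors, was present in 16 of 18 (88.9%) and in 26 of 37 (70.3%), compared with 58.3% of all promoters. Among all protein-coding genes it was likewise found in a larger share of promoters with an interval (76.9%) than without (54.8%). It occurred 11 times in the printed window of RAB22A, mostly within the repeat. CCGGAAG, a site of ETS factors, was present in 3 of 18, namely RAB8A, RAB11B and RAB22A, and in 7 of 37, compared with 14.2% of all. The palindromic site of NRF1 was found in 0 of 18 and in 1 of 37 (RAB18), compared with 1.77% of all. The site of YY1 was found in RAB22A and RAB14, and in 1.33% of all. The windows are shorter than many intervals and do not cover them, so a missing match refers to these windows only.

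The partners of Rab proteins were examined as a list of 125 genes, written from general knowledge and all found in the table. Of these, 24 had an interval at an end (19.2%, 12.7% to 27.2%), and the confidence interval included the share of all protein-coding genes, 15.5%. For scores of at least 30, 12 of the 125 remained (9.6%, compared with 9.5%). Among 35 exchange factors there were 9 (25.7%, 12.5% to 43.3%), namely ANKRD27, DENND2A, DENND3, DENND4A, DENND5A, DENND5B, GAPVD1, RGP1 and SBF2. Among 40 GAPs there were 4 (exact interval 2.79% to 23.7%), namely RABGAP1, TBC1D2, TBC1D2B and TBC1D4. Among 42 effectors there were 11 (26.2%, 13.9% to 42.0%), namely ACAP2, BICD1, BICD2, EEA1, GOLGA2, RAB11FIP1, RAB11FIP3, RABEP2, RABEPK, RBSN and RILP. The 8 factors that carry Rab proteins to and from membranes, such as GDI2 and CHM, had none, which allows up to 37.5%.

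Several of these genes act with RAB5 proteins, and those named here were picked after their values had been seen. EEA1 and RBSN, effectors in the fusion of early endosomes, had intervals scoring up to 42 and 25. RABEP2, which binds an exchange factor of RAB5, had an interval scoring 76 at chr16:28924730-28925294. GAPVD1, an exchange factor of RAB5, had an interval scoring 15. In contrast, RABGEF1, RABEP1, APPL1, RIN1, RIN2 and RIN3, also partners of RAB5, had none at an end. RILP, an effector of RAB7A, had intervals scoring 26 and 13, while RAB7A itself had none.

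Other small GTPases were examined in the same way. Of 93 genes of other small GTPases, among them the ARF and RAS families and RAB-like proteins, 25 had an interval at an end (26.9%, 18.2% to 37.1%), and the confidence interval overlapped with that of the RAB genes (19.0% to 41.7%). Both confidence intervals lay above 15.5%, and the difference between the groups was not tested. For scores of at least 30, 12 of the 93 genes remained (12.9%, compared with 9.5% of all protein-coding genes). The filtered share was given no confidence interval, and its difference from 9.5% was not tested. For scores of at least 20, 18 of the 93 remained (19.4%, compared with 13.8%). With the nearest end only, 19 remained (20.4%, compared with 13.4%). Within 2 kb of an end there were 30 (32.3%, compared with 17.2%). These shares had no confidence interval and were not tested either. By family there were 10 of 30 ARF and ARL genes (33.3%), 9 of 36 RAS genes and 0 of 7 RAB-like genes and RAN, which allows up to 42.9%.

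**Figure D5:**
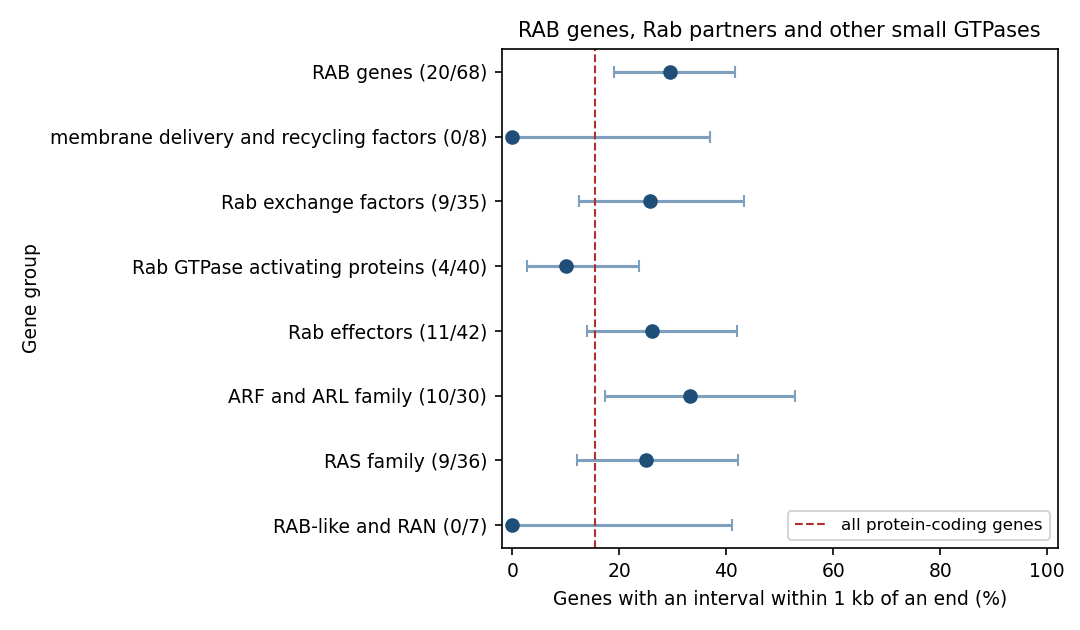
Share of genes with an interval within 1 kb of an end (%, horizontal axis) for RAB genes, 4 groups of Rab partners and 3 groups of other small GTPases, with the number of genes in parentheses. Points are shares, bars are exact 95% binomial intervals, and the dashed line is the share of all protein-coding genes (15.5%). RAB genes (29.4%) and the ARF and ARL family (33.3%) have bars wholly above the line. The bars make no allowance for the number of groups.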

How the data were processed

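ChIP-seq peaks of 1 HA-RFX6 library of MHCC-97H cells were analysed. Groups were taken from the sample titles. The authors called peaks with MACS2 2.1.0.2 under a q-value threshold, and sequencing analysis was done by a company. The aligner and the control used in calling are not given in the sources used here. The authors deposited a peak list without a header, with a whole-number score for each line. Read depth was not given, so precision is limited to exact (Clopper-Pearson) binomial intervals at 95% on gene counts, and the limit for a count of 0 is 3 counts of the total.

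The list held 6214 lines. In 1 line the coordinates had been broken by digit separators and were rejoined. Identical intervals were counted once with their highest score, which left 5022, of which 3 mitochondrial intervals were left out. Coordinates are 1-based. The submitters' processing notes name GRCh37, but the positions fit GRCh38 genes. Of the intervals, 60.8% lay at protein-coding gene ends of GRCh38.p14, compared with 7.65% and 8.11% after moves of 20 kb. Coordinates are therefore given as GRCh38.

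An interval belonged to a gene end when its midpoint was within 1 kb of the end. All members with an interval were named, as were the listed Rab partners with an interval at an end. The members and lists were chosen with earlier results of these data known, and the bins of GC content and the search for repeats were added after values had been seen. Protein sequences were not used here. A few listed genes and 1 family of the other small GTPases entered the pooled counts but are not reported here by name. Alternatives were score filters, wider windows, any overlap, nearest end, merging, starts only, GTPases only and moved intervals. The score filter within groups and the placement of RAB6D were added after values had been seen. Python 3.11.15, numpy 2.4.6, pandas 2.3.3, scipy 1.17.1 and matplotlib 3.10.9 were used.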

Additional observations from a re-analysis of the deposited data

How the results depend on the processing

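The number of RAB genes with an interval at an end was 20. It fell to 11 of 68 for scores of at least 30 (16.2%, compared with 9.5% of all protein-coding genes), where RAB1A, RAB5B, RAB6B, RAB8B, RAB11B, RAB26, RAB31, RAB34 and RAB40C were lost. With intervals moved by 20 kb, it was 2 in either direction (2.94%, compared with 2.01% and 2.05%). The other alternatives gave 17 to 21 genes. The number of intervals at RAB gene ends, 25, became 11 for scores of at least 30, and 2 and 3 after the moves. Genes with an interval in the body only were 1. For scores of at least 30 and of at least 20 they were 2 (2.94%, compared with 2.52% and 3.51% of all protein-coding genes). After the moves they were 11 and 15 (16.2% and 22.1%, compared with 10.8% and 10.6%). Among GTPases only, with the intervals not moved, the count was 0 of 64, compared with 4.06% of all protein-coding genes. With fewer intervals, RAB31 and RAB40C can lose their end interval and keep one in the body, by construction. In alternatives chosen after seeing the data, scores of at least 30 left 3 of 6 genes of early endosomes and 3 of 11 of the ER and Golgi. They left 2 of 12 of secretion (16.7%), 1 of 9 of recycling (11.1%), 1 of 3 of the cilium (33.3%) and 1 of 15 ungrouped GTPases (6.67%). Among all protein-coding genes the share was 9.5%. The exact interval of early endosomes (11.8% to 88.2%) lay above it, and those of the other groups listed here included it. These exact intervals make no allowance for the number of groups. The 24 partners of Rab proteins and the 25 other small GTPases with an interval each became 12 for scores of at least 30. That was 9.6% and 12.9%, compared with 9.5% of all protein-coding genes. Confidence intervals were not computed for the filtered shares of all members, the partners and the other small GTPases. With 1 ChIP library, samples could not be paired and no replicate could be left out. Depth was unknown, so genes with weak enrichment may be missing from the list.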

Other observations

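Intervals close to RAB genes but outside the limit of 1 kb were found at RAB26 and RAB37. An interval scoring 33 (chr16:2155646-2155883) lay 1599.5 bp beyond the far end of RAB26 and within 1 kb of an end of TRAF7, and its score was above those of the RAB26 intervals at the gene end (16 and 24). An interval scoring 32 (chr17:74748550-74748862) lay 1371 bp beyond an end of RAB37 and within 1 kb of an end of NHERF1, a scaffold protein of epithelial membranes.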
